A study of Mus musculus with 20 samples.

Results

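Vessel markers and leukocyte adhesion genes were followed in tumours grown from CT26 cells, a mouse colon carcinoma line. The set holds 10 genes of 55335 in the deposited files, listed by symbol from Ensembl identifiers in the GENCODE vM21 annotation of mm10. No value entered that rule, but the set was chosen with earlier results of these data known. Of these, 7 mark blood vessel endothelium (Pecam1, Cdh5, Kdr, Tek, Tie1, Emcn and Eng), Lyve1 is a marker of lymphatic endothelium that some macrophages also carry, and Icam1 and Vcam1 encode adhesion molecules. All 10 passed the filter on low values. RNA of whole tumour tissue from 20 mice was sequenced, in 4 groups of 5: vector control cells with PBS, vector control cells with anti-PD-1, POLE-mutant cells with PBS, and POLE-mutant cells with anti-PD-1. The antibody blocks PD-1, a receptor that restrains activated T cells. The labels name neither the amino acid change nor the number of clones, and give no age, sex, dose or time. The title of the series names CHEK2 where the labels name POLE, so the altered cells are called mutant here. The design text gives 5 mice per group, and replicate numbers only name a tumour.

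Endothelial cells line blood vessels, hold together through the cadherin and PECAM-1 at their junctions, and answer growth factors through the receptors VEGFR2 and TIE2. ICAM-1 and VCAM-1 are the wall side of leukocyte arrest: they bind the integrins LFA-1 and VLA-4 on leukocytes. Inflammatory cytokines such as TNF, interleukin-1 and interferon-gamma raise them on endothelium, although fibroblasts, macrophages and tumour cells can carry them too. The question asked of these genes is therefore how vessel markers and adhesion genes compare across the groups. In bulk tissue, fewer cells of a type and less RNA per cell cannot be told apart.

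Values are FPKM (fragments scaled by transcript length and library size) and were tested as log2(FPKM + 1) with limma over 13982 genes, all groups in 1 fit, with Benjamini-Hochberg adjusted p under 0.05 as the threshold. Each difference is on that log2 scale with its SE. The depth of the libraries is unknown. In 11 libraries the animal identifier begins with M (here M-style), and in 9 it is only a number. What this marks is not stated in the labels, and it was a term of the fit. The mean Spearman correlation with the other libraries was 0.873 in vector anti-PD-1 replicate 1, 0.874 in mutant anti-PD-1 replicate 1 and 0.889 in mutant anti-PD-1 replicate 2, against 0.906 to 0.913 in the other 17. Results that rest on these 3 libraries, all M-style, are given with and without them. Vector anti-PD-1 replicate 1 also differed in other library measures. Its total was 566913 FPKM, against a median of 355874.6 over the 20 libraries. In it 11182 genes reached 1 FPKM, against 12474 or more in the others. Mitochondrial genes made up 2.85% of its total, against 6.43% or more, and small RNA genes 8.6%, against 5.49% or less. Mutant anti-PD-1 replicates 1 and 2 had totals of 355819 and 335128 FPKM. In the mutant anti-PD-1 group replicates 1 and 2 were the only M-style libraries, so low correlation and identifier style cannot be told apart there. Fits without the 3 keep only number-only tumours of that group, with the style term estimated from the other groups. Fits of M-style tumours keep only replicates 1 and 2 of it, so these 2 settings are not independent checks. Of epithelial markers, Krt8, Krt18, Krt19 and Krt20 passed the filter, while Epcam, Cdh1, Vil1 and Cdx2 did not. Summed epithelial markers were 5.97 FPKM in mutant anti-PD-1 replicate 1. They ran from 25.8 to 109.5 FPKM in the other 19 tumours. Pole averaged 8.62, 7.51, 5.22 and 3.94 FPKM in vector PBS, vector anti-PD-1, mutant PBS and mutant anti-PD-1 tumours. Without the 3 least correlated libraries it averaged 8.37 FPKM in vector anti-PD-1 and 4.995 FPKM in mutant anti-PD-1 tumours.

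Under PBS, no blood vessel marker was called between the 2 tumour types, and Lyve1 was lower in the mutant tumours. Cdh5 (VE-cadherin, the junction protein most particular to endothelium; chromosome 8, 104101625 to 104144511) measured 9.17, 6.96, 15.5, 12.4 and 11.5 FPKM in the 5 vector PBS tumours. In the mutant PBS tumours it measured 11.1, 11.4, 13.6, 12.3 and 11.8 FPKM. The mutant tumours lay inside the range of the vector tumours. The difference was 0.15 ± 0.398 (adjusted p = 0.969), with a 95% interval from -0.69 to 0.98. The other 6 blood vessel genes differed by between -0.09 (Tek) and 0.29 (Eng), and none passed the threshold. In this comparison 1 of the 10 genes was called, where 1.45% of all genes tested were called in either direction. Icam1 (0.25 ± 0.307, adjusted p = 0.895) and Vcam1 (-0.29 ± 0.251, adjusted p = 0.795) did not pass either.

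The gene called under PBS was Lyve1 (a hyaluronan receptor; chromosome 7, 110850607 to 110863239). It measured 18.9, 11.3, 36.4, 22.5 and 19.9 FPKM in vector PBS tumours. In mutant PBS tumours it measured 1.199, 2.04, 2.54, 5.39 and 4.02 FPKM. The highest mutant tumour lay below the lowest vector tumour, and the group mean was 7.17 times lower. The difference was -2.51 ± 0.541 (adjusted p = 0.0243). Non-overlapping ranges with the mutant group lower were seen in 5.74% of all genes tested. The call did not hold when replicate 1, 3, 4 or 5 of the vector PBS group, or replicate 1 or 2 of the mutant PBS group, was left out (adjusted p from 0.0528 to 0.0803), while the difference stayed between -2.72 and -2.30 whichever tumour was removed. It was also lost with a pseudocount of 0.1 (adjusted p = 0.0654), with no filter on low values (0.0552) and among tumours with M-style identifiers (-2.86, adjusted p = 0.202).

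Other genes of lymphatic endothelium were near 0. Prox1, the transcription factor that sets lymphatic identity, was listed at 0 in 13 libraries and reached 0.160 FPKM. Mmrn1 was listed at 0 in 15 libraries, and Flt4, the lymphatic growth factor receptor VEGFR3, ran from 0.111 to 0.995 FPKM. Pdpn and Nrp2 were the 2 of 9 lymphatic genes that passed the filter, and neither was called in any comparison over all 20 libraries. Without the 3 least correlated libraries Pdpn was called lower in mutant than in vector tumours under anti-PD-1 (-0.93 ± 0.256, adjusted p = 0.0160). Their levels, 16.7 to 59.3 FPKM for Pdpn and 7.64 to 38.5 FPKM for Nrp2, were far above those of Prox1. Both genes are also active in fibroblasts and other cells.

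Of 13 macrophage genes, 3 that were picked after their values were seen had lower means in mutant PBS tumours. Mrc1 (the mannose receptor CD206) averaged 88.2 ± 28.1 FPKM in vector PBS and 38.1 ± 7.71 FPKM in mutant PBS tumours (SD, n = 5). Its ranges did not overlap, and the difference was -1.15 (adjusted p = 0.174). Folr2 (a folate receptor of tissue macrophages) differed by -1.13 (adjusted p = 0.266) and Cd163 (the haemoglobin scavenger receptor) by -1.34 (adjusted p = 0.427). None of these 3 passed with all 20 libraries, and all 3 passed without the 3 least correlated libraries, all of them in anti-PD-1 groups, with adjusted p of 0.00450, 0.00605 and 0.0159. Without those libraries Lyve1 had the same difference of -2.51 by design, since both PBS groups keep all tumours and the same mix of identifier styles. Only the spread and the adjusted p could change. Of the 13 macrophage genes, 0 were called with all libraries and 4 were lower without the 3. Over all genes tested, 1.45% were called in either direction with all libraries, and 960 of 13982 were lower without the 3. The median of the list was, by the same design, -0.10 in both fits. Not all went 1 way: Timd4, a receptor of resident macrophages, was at 0.66, Fcgr1 at 0.21 and C1qb at 0.10, none of them called. The part of these cells in the Lyve1 difference was not tested.

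**Figure D1:**
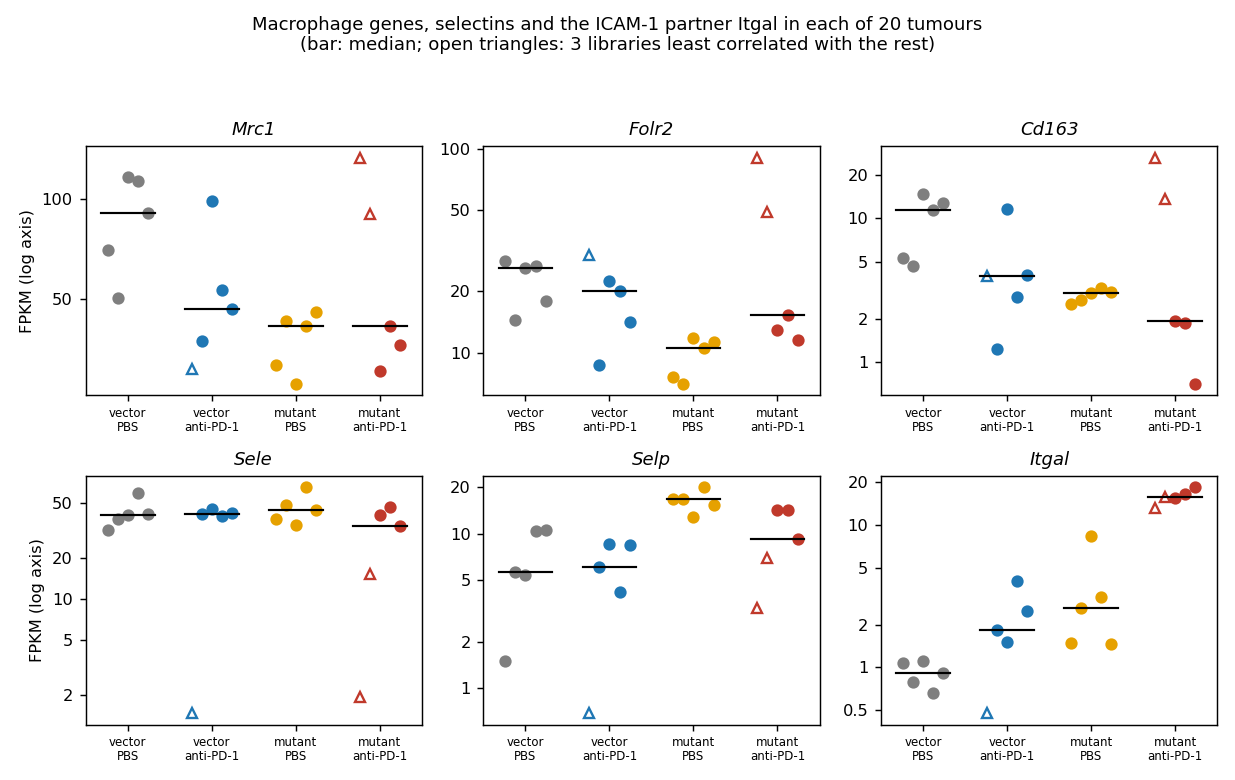
FPKM of 3 macrophage genes (Mrc1, Folr2, Cd163), 2 selectins (Sele, Selp) and the integrin gene Itgal in each tumour, on log axes, by group, with group medians as bars and the 3 least correlated libraries as open triangles. Mrc1 lies between 50.6 and 116.5 FPKM in vector PBS and between 27.9 and 45.7 FPKM in mutant PBS tumours, and Sele is at 1.47 and 1.94 FPKM in 2 of the open triangles.

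Anti-PD-1 changed none of the 10 genes past the threshold in vector tumours, where limma called 0 of all genes tested (0%) and 426 had an unadjusted p under 0.05. Lyve1 measured 9.46, 2.38, 17.2, 10.4 and 8.01 FPKM in these tumours, lower on average than in vector PBS tumours but with overlapping ranges (-1.22 ± 0.541, adjusted p = 0.724). Icam1 measured 1.45, 1.64, 2.62, 4.78 and 2.18 FPKM, against 2.53, 1.22, 1.46, 1.45 and 1.93 FPKM with PBS. The groups overlapped, and the difference was 0.33 ± 0.307 (adjusted p = 0.724). Vcam1 differed by -0.17 (adjusted p = 0.801) and the 7 blood vessel genes by between -0.37 (Cdh5) and 0.30 (Eng). The 95% interval of Cdh5 reached from -1.203 to 0.468.

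In mutant tumours anti-PD-1 was followed by higher adhesion genes. Icam1 (the ligand of LFA-1 and Mac-1; chromosome 9, 21015985 to 21028817) measured 0.902, 1.82, 6.86, 2.18 and 1.44 FPKM with PBS. With anti-PD-1 it measured 20.8, 17.7, 9.80, 12.1 and 11.1 FPKM. Every anti-PD-1 tumour was above every PBS tumour, and mutant PBS replicate 3 stood well above the other 4. The group mean was 5.41 times higher, and the difference was 2.26 ± 0.311 (adjusted p = 4.61e-05). It passed in all 21 alternatives tried, with differences from 2.01 to 2.73.

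The promoter of Icam1 is shown because Icam1 was the gene called, with all 20 libraries, in every comparison that included mutant anti-PD-1 tumours. RefSeq promoters of GRCm38.p6 were matched for 6 of the 10 genes (Kdr, Tek, Tie1, Emcn, Eng and Icam1), and the 250 bases before the annotated start were searched on both strands. Those of Icam1 lie at chr9:21015690-21015939 on the plus strand and those of Eng, the vessel marker called in all 21 alternatives, at chr2:32646345-32646594 on the plus strand. Capitals mark matches.
Icam1: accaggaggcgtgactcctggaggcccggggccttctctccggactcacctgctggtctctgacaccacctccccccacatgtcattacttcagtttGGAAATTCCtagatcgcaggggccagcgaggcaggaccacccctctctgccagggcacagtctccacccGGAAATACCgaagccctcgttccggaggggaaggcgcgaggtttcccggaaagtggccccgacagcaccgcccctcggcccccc
Eng: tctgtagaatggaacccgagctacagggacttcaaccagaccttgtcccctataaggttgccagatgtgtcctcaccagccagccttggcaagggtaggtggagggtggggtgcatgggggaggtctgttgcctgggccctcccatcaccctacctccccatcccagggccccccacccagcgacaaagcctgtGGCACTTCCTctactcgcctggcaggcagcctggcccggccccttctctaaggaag
The Icam1 window held the NF-kappaB letters GGNNNTTCC at positions -153 to -145 (GGAAATTCC, a match on both strands) and on the minus strand at -84 to -76 (printed as GGAAATACC). Eng held the NF-kappaB letters at -56 to -48, overlapping the ETS letters AGGAAGT on the minus strand at -53 to -47. Of 32851 promoters of that length, 15.7% held the NF-kappaB letters and 7.69% the ETS letters. Kdr, Tek, Tie1 and Emcn held neither of these, nor the IRF motif (2.98% of promoters) or the GATA letters AGATAAG (2.74%). A match is a description of the sequence and not of binding in these tumours.

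Vcam1 (the ligand of VLA-4; chromosome 3, 116109949 to 116129688) was the most abundant of the 10 genes, with a median of 33.0 FPKM over the 20 tumours. It measured 21.1, 24.4, 39.5, 30.0 and 25.5 FPKM in mutant PBS tumours. With anti-PD-1 it measured 28.4, 56.9, 69.7, 66.9 and 57.6 FPKM. Replicate 1 of the anti-PD-1 group lay among the PBS tumours, and the other 4 lay above all of them. The difference was 0.89 ± 0.254 (adjusted p = 0.0133), and 1.24 ± 0.173 (adjusted p = 0.000608) without the 3 least correlated libraries. It lost the call with the skeletal muscle marker level as a term (0.84, adjusted p = 0.0522) and among tumours with M-style identifiers (0.54, adjusted p = 0.413).

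Blood vessel genes also rose in mutant tumours with anti-PD-1, but most of that rise came with 2 tumours. Of the 10 genes, 8 were called higher and 0 lower in this comparison, where 15.9% of all genes tested were called higher and 14.6% lower. Without the 3 least correlated libraries 3 were called higher (Eng, Icam1 and Vcam1) and Lyve1 lower, where 12.2% of all genes were called higher and 9.96% lower. Cdh5 measured 44.7, 35.0, 11.2, 14.6 and 14.8 FPKM. Replicates 1 and 2 stood far above the rest. Replicate 3 lay within the PBS range of 11.1 to 13.6 FPKM, and replicates 4 and 5 lay just above it. The difference of 0.74 ± 0.402 did not pass (adjusted p = 0.172) and was -0.04 ± 0.216 (adjusted p = 0.928) without the 3 libraries.

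Pecam1 (the junction protein CD31, also carried by platelets and leukocytes; chromosome 11, 106654217 to 106750628) measured 9.34, 8.63, 11.5, 7.71 and 7.23 FPKM with PBS. With anti-PD-1 it measured 45.7, 32.4, 12.54, 15.2 and 13.6 FPKM. The ranges did not overlap, although replicate 3 lay only just above the highest PBS tumour. The difference was 1.21 ± 0.316 (adjusted p = 0.00787) and 0.56 ± 0.217 (adjusted p = 0.0780) without the 3 libraries.

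The receptors and the mucin were also highest in replicates 1 and 2. Kdr (VEGFR2; chromosome 5, 75932827 to 75978458) measured 10.1, 7.495, 2.39, 2.82 and 4.41 FPKM in mutant anti-PD-1 tumours against 1.60 to 3.36 FPKM with PBS. Tek (TIE2, the angiopoietin receptor; chromosome 4, 94739289 to 94874976) measured 10.9, 5.08, 1.09, 1.45 and 1.35 FPKM against 0.504 to 1.87 FPKM. Replicates 3 to 5 lay within the PBS range for Tek, and for Kdr replicate 5 lay above it. Tie1 (a receptor related to TIE2; chromosome 4, 118471191 to 118490061) measured 16.1, 9.86, 2.76, 3.30 and 2.97 FPKM against 1.89 to 3.14 FPKM. Emcn (endomucin, a surface mucin of veins and capillaries; chromosome 3, 137341067 to 137432185) measured 8.44, 5.79, 2.64, 2.30 and 2.91 FPKM against 1.63 to 2.49 FPKM. Replicate 4 lay just above the PBS range for Tie1, and replicates 3 and 5 just above it for Emcn. All 4 were called with 20 libraries, at adjusted p between 0.00989 (Emcn) and 0.0326 (Kdr). Without the 3 libraries their differences were 0.21 to 0.28, at adjusted p between 0.265 (Emcn) and 0.590 (Kdr).

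Eng (endoglin, a co-receptor for TGF-beta and BMP ligands that activated macrophages and fibroblasts also carry; chromosome 2, 32646595 to 32682669) was, beside Pecam1, the vessel marker whose 5 mutant anti-PD-1 tumours all lay above the PBS tumours. It measured 3.44, 3.64, 6.45, 3.96 and 3.86 FPKM with PBS. With anti-PD-1 it measured 30.1, 16.3, 7.56, 8.55 and 7.77 FPKM. The difference was 1.40 ± 0.267 (adjusted p = 0.000829). It was 0.74 ± 0.185 (adjusted p = 0.0105) without the 3 libraries, and it passed in all 21 alternatives.

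Non-overlap upward in this comparison was found for 3 of the 10 genes (Pecam1, Eng and Icam1), against 11.1% of all genes tested. The 2 tumours with the highest vessel markers also stood apart for several other cell types. Summed fibroblast markers were 2464 and 1579 FPKM in mutant anti-PD-1 replicates 1 and 2, and 298.7 to 372.7 FPKM in the other 3 tumours of that group. Summed pericyte and vessel smooth muscle markers were 216.3 and 170.6 FPKM in those tumours, and 37.7 to 51.9 FPKM in the other 3. Summed macrophage markers were 4361 and 3593 FPKM, against 1666 to 2046 FPKM. Skeletal muscle markers were 212.7 and 1918 FPKM, against 109.3 to 383.3 FPKM, so only replicate 2 stood apart for them. No muscle gene was called. Platelet and megakaryocyte markers were 427.3 and 92.1 FPKM, against 8.775 to 20.9 FPKM, and adipocyte markers 174.3 and 35.4 FPKM, against 1.74 to 5.23 FPKM. The part of these cell types in the vessel marker result was not tested.

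**Figure D2:**
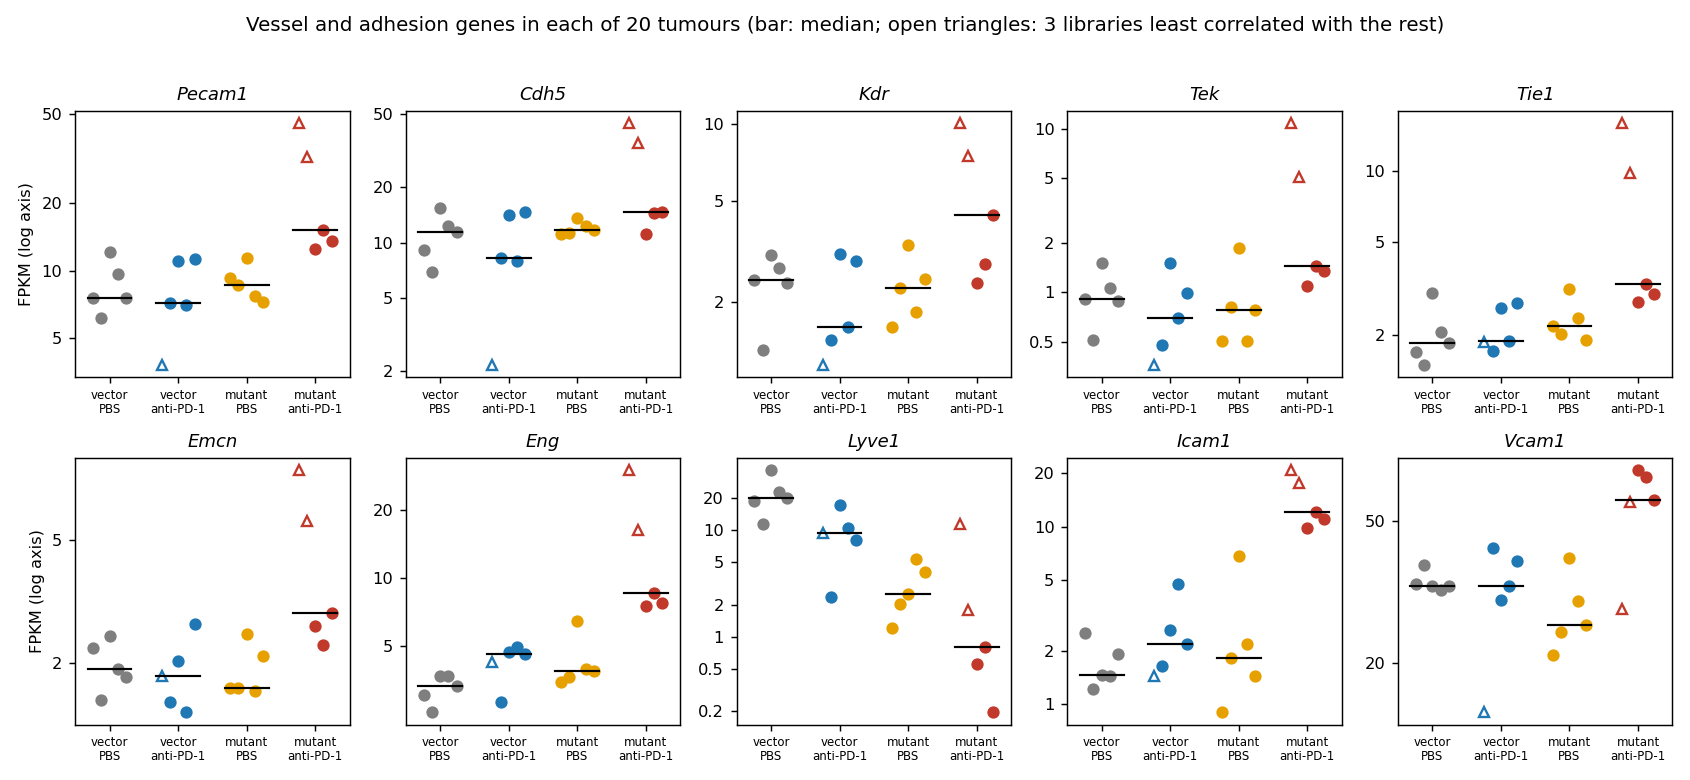
FPKM of the 10 genes in each of 20 tumours, on log axes, by group, with group medians as bars and the 3 least correlated libraries as open triangles. In the mutant anti-PD-1 group the open triangles lead all 7 blood vessel genes (Cdh5 at 44.7 and 35.0 FPKM), while Icam1 lies above 9 FPKM in all 5 tumours and Lyve1 is below 1 FPKM in 3 of them.

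Lyve1 was not among the genes called higher in the same comparison. It measured 11.3, 1.79, 0.552, 0.798 and 0.195 FPKM in mutant anti-PD-1 tumours. Replicate 1 was above every mutant PBS tumour, replicate 2 was among them, and the other 3 were below all of them. With 20 libraries the difference was -0.54 ± 0.546 (adjusted p = 0.484). Without the 3 libraries it was -1.74 ± 0.444 (adjusted p = 0.0119), so the call depended on those libraries. Mrc1 in the same 5 tumours measured 132.7, 90.2, 30.6, 41.5 and 36.5 FPKM and Cd163 measured 26.5, 13.8, 1.93, 1.86 and 0.704 FPKM. For these 2 genes too, replicates 1 and 2 were the highest.

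Under anti-PD-1, mutant tumours were called higher than vector tumours for 9 of the 10 genes and lower for Lyve1, where 17.8% of all genes tested were called higher and 15.1% lower. These anti-PD-1 tumours are the same as in the comparison with PBS, so the 2 sets of values are not independent. Icam1 differed by 2.18 ± 0.311 (adjusted p = 5.31e-05), Eng by 1.39 ± 0.267 (adjusted p = 0.000792) and Pecam1 by 1.39 ± 0.316 (adjusted p = 0.00268). Lyve1 differed by -1.83 ± 0.546 (adjusted p = 0.0155), and lost the call without vector anti-PD-1 replicate 3 (-1.52, adjusted p = 0.0505) and among tumours with M-style identifiers (-0.33, adjusted p = 0.770). Vcam1 differed by 0.77 ± 0.254 (adjusted p = 0.0259), and lost the call without vector anti-PD-1 replicate 3 or mutant anti-PD-1 replicate 2, 3 or 4, with adjusted p between 0.0527 and 0.0776. It was also lost with the muscle term (0.73, adjusted p = 0.0730) and among tumours with M-style identifiers (0.54, adjusted p = 0.403). Cdh5 differed by 1.26 ± 0.402 (adjusted p = 0.0224). Ranges lay wholly above for Pecam1, Tie1, Eng and Icam1, against 12.1% of all genes tested. For Tie1 the lowest mutant tumour, at 2.76 FPKM, was only just above the highest vector tumour, at 2.73 FPKM.

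With the 3 libraries left out, the same comparison called 3 of the 10 higher and 1 lower, against 11.6% of all genes in each direction. Icam1 differed by 1.80 ± 0.389 (adjusted p = 0.00438), Vcam1 by 0.87 ± 0.176 (adjusted p = 0.00302) and Eng by 0.74 ± 0.188 (adjusted p = 0.0103). Lyve1 differed by -2.92 ± 0.450 (adjusted p = 0.000653). Cdh5 differed by 0.13 ± 0.219 (adjusted p = 0.729), and Kdr, Tek, Tie1 and Emcn by 0.26 to 0.29. The intervals of the last 5 all reached below 0.

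**Figure D3:**
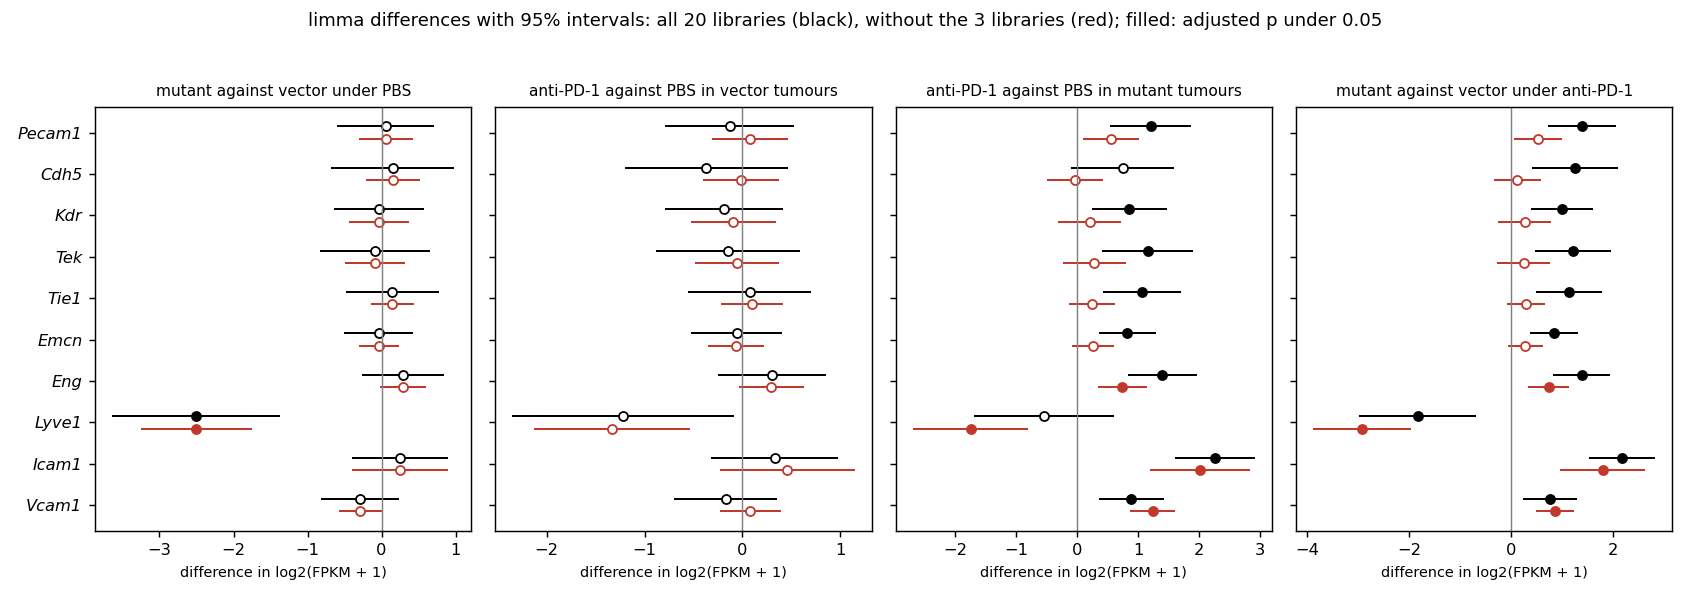
Differences in log2(FPKM + 1) for the 10 genes in 4 comparisons, with 95% intervals, from all 20 libraries (black) and without the 3 least correlated libraries (red), filled where the adjusted p is under 0.05. In mutant tumours the red points of the vessel genes lie to the left of the black ones, near 0 for Cdh5 (0.74 and -0.04) but still above it for Pecam1 (1.21 and 0.56) and Eng (1.40 and 0.74), while Icam1 stays near 2 in both colours (2.26 and 2.01).

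Whether the response to anti-PD-1 differed between mutant and vector tumours was tested directly as the difference of the responses. Icam1 was the 1 gene of the 10 called, at 1.93 ± 0.437 (adjusted p = 0.0114), where 9.35% of all genes tested were called in either direction. It was not called without the 3 libraries (1.55, adjusted p = 0.0849) or among tumours with M-style identifiers (2.22, adjusted p = 0.0932). Vcam1 differed by 1.06 ± 0.357 (adjusted p = 0.0667), and was called without the 3 libraries at 1.15 ± 0.223 (adjusted p = 0.0255), where 2.16% of all genes were called higher. Pecam1 (1.34, adjusted p = 0.0639), Eng (1.09, adjusted p = 0.0714) and Emcn (0.88, adjusted p = 0.0807) came closest among the vessel genes, and Cdh5 was at 1.11 (adjusted p = 0.215).

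Adhesion genes were then read against the vessel markers of the same tumour. The mean log2(FPKM + 1) of the 7 blood vessel genes was 2.10 ± 0.262 in vector tumours with PBS, 2.03 ± 0.374 in vector tumours with anti-PD-1 and 2.17 ± 0.219 in mutant tumours with PBS (SD, n = 5). In mutant anti-PD-1 tumours it was 4.34, 3.75, 2.44, 2.61 and 2.66. Among the other 15 tumours the mean ran from 1.55, in vector anti-PD-1 replicate 1, to 2.56, in mutant PBS replicate 3. Replicates 1 and 2 of the mutant anti-PD-1 group stood far above that range, and the other 3 lay at its upper end or just beyond it.

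Icam1 per unit of Cdh5, the ratio of their FPKM, was 0.466, 0.505, 0.875, 0.827 and 0.7504 in mutant anti-PD-1 tumours. In mutant PBS tumours it ran from 0.0810 to 0.504, with a median of 0.160. The range in vector anti-PD-1 tumours was 0.148 to 0.673, and that in vector PBS tumours 0.0941 to 0.276. The ratio was highest in replicates 3 to 5 of the mutant anti-PD-1 group. It was lower in replicates 1 and 2, the tumours with the highest vessel markers, and replicate 1 lay below mutant PBS replicate 3. Vector anti-PD-1 replicate 1 reached 0.673 with the lowest Cdh5 of all, at 2.16 FPKM. Vector anti-PD-1 replicate 4 was at 0.600 with Cdh5 at 7.96 FPKM. Both ratios lay above those of mutant anti-PD-1 replicates 1 and 2. Icam1 minus the mean of the 7 vessel genes on the log2 scale was above 0 in all 5 mutant anti-PD-1 tumours (0.10 to 1.09). It was above 0 in 2 of the other 15, vector anti-PD-1 replicate 4 (0.58) and mutant PBS replicate 3 (0.42).

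Vcam1 per unit of Cdh5 gave another order. The ratio assigns the Vcam1 RNA to no cell type, and with group means removed the 2 genes had an r of 0.0980 over 20 tumours. In mutant anti-PD-1 tumours the ratio was 0.635 in replicate 1, the lowest of the 20, and 1.63 in replicate 2. It was 3.90 to 6.22 in replicates 3 to 5. In vector PBS tumours it ran from 2.13 to 5.41, in vector anti-PD-1 tumours from 2.14 to 6.74 and in mutant PBS tumours from 1.90 to 2.90. Replicates 3 to 5 of the mutant anti-PD-1 group thus lay above all 5 mutant PBS tumours, and replicates 1 and 2 below all 5. Replicate 3, at 6.22, was above every vector tumour but vector anti-PD-1 replicate 1 (6.74), 1 of the 3 least correlated libraries, and the next highest vector tumour was at 5.41.

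**Figure D4:**
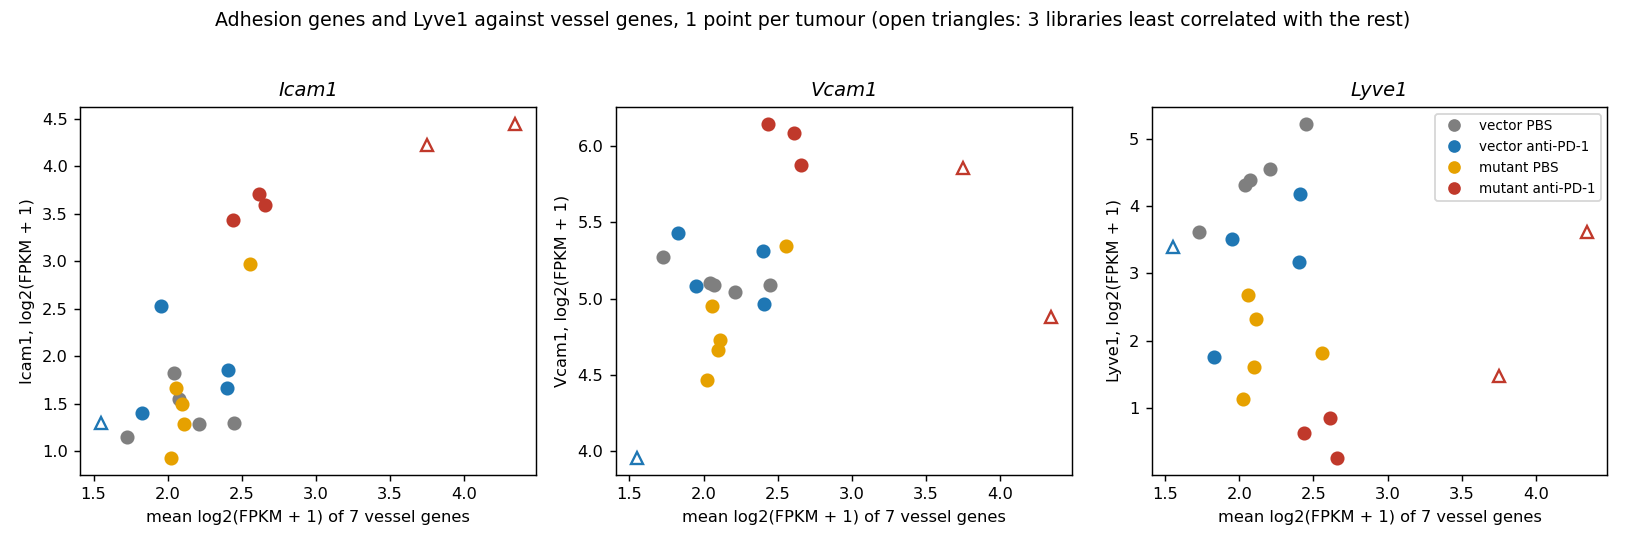
Icam1, Vcam1 and Lyve1 (log2(FPKM + 1)) against the mean log2(FPKM + 1) of the 7 blood vessel genes, 1 point per tumour, coloured by group, with the 3 least correlated libraries as open triangles. Mutant anti-PD-1 replicates 1 and 2 lie far to the right (4.34 and 3.75), and the other 3 tumours of that group (2.44 to 2.66) have high Icam1 and Vcam1 and low Lyve1.

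The 7 blood vessel genes varied together from tumour to tumour. With group means removed, the Pearson correlation of their log2(FPKM + 1) over 20 tumours ran from 0.650 to 0.958 across their 21 pairs, with a median of 0.892. Over the 17 tumours without the 3 least correlated it ran from 0.523 to 0.934, with a median of 0.737. Cdh5 and Icam1 had an r of 0.440 over 20 tumours and 0.0815 over 17, while Cdh5 and Vcam1 had 0.0980 and -0.0906. Eng was nearer to Icam1, at 0.671 and 0.780. These are descriptions over libraries of unknown depth that share a tissue.

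The tested genes whose deviations were most like those of each gene differed between the 4 genes examined. For Cdh5 they were Mcam (the adhesion molecule CD146 of endothelium and pericytes, r = 0.978 over 20 tumours), Col4a2 (a basement membrane collagen, 0.961), Pdgfra (a fibroblast receptor, 0.958), Itsn1 (0.955) and Notch4 (an endothelial Notch receptor, 0.947). For Icam1 they were Plcg2 (a phospholipase of immune receptor signalling, 0.968), Ptpn6 (the phosphatase SHP-1, 0.966), Cd180 (0.965), Themis2 (0.959) and Map4k1 (0.957). For Lyve1 they were Maf (a transcription factor of macrophages, 0.906), Npl (0.903), Stard8 (0.900), Nxpe5 (0.874) and Selenop (0.873). For Vcam1 they were Hpse (heparanase, 0.907), Itgbl1, Aox1 and Nudt13 (0.892). With 17 tumours Mcam stayed first for Cdh5 (0.936), 4 of the 5 for Icam1 stayed among the 5 highest, and for Vcam1 Hpse fell to 0.690. The ranking was over 10861 genes.

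A wider list of endothelial identity genes held 28 genes, of which 24 were tested. In mutant tumours with anti-PD-1, 17 were higher and 1 lower, with a median difference of 0.91 against -0.10 over all genes. Without the 3 libraries 3 were higher (Fli1, Cd93 and Ecscr), with a median of 0.27 against -0.04. The share of all genes called higher in this comparison was 15.9% with all libraries and 12.2% without the 3, so the 3 of 24 lay near that share. Counts of the lists that follow, where they are for this comparison, stand beside the same shares. Plvap, the diaphragm protein of fenestrated vessels, differed by 1.47 ± 0.314 (adjusted p = 0.00194), and by 0.74 (adjusted p = 0.0526) without them. Under PBS 0 of the 24 were called in mutant against vector tumours, with a median of 0.08, and with anti-PD-1 in vector tumours 0 were called, with a median of -0.003.

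Some genes of that list did not follow Cdh5. Cd34, a sialomucin of endothelium and of progenitor and tumour cells, averaged 83.5 ± 5.32 FPKM in vector PBS and 59.3 ± 8.43 FPKM in mutant PBS tumours (SD, n = 5), ranges that did not overlap. That difference, -0.50, did not pass with all libraries (adjusted p = 0.283) and passed without the 3 (adjusted p = 0.00341). Under anti-PD-1 the mutant tumours were called lower for Cd34 (-0.72 ± 0.193, adjusted p = 0.00839), and its levels of 29.0 and 32.9 FPKM in mutant anti-PD-1 replicates 1 and 2 were the lowest of the 20. Esm1 (endocan) measured 16.7 and 90.5 FPKM in those 2 tumours and 133.3 to 311.8 FPKM in the other 3, and was lower than with PBS (-1.70 ± 0.518, adjusted p = 0.0188). Without the 3 libraries Esm1 was at -0.59 (adjusted p = 0.241). Within the mutant anti-PD-1 group both genes were thus lowest in the 2 tumours with the highest blood vessel genes. Of these, replicate 1 also had the lowest summed epithelial markers of the 20 tumours, at 5.97 FPKM.

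Of the pericyte and vessel smooth muscle genes, 8 of 11 were tested. In mutant tumours with anti-PD-1, 2 were higher (Notch3 and Pdgfrb), and without the 3 libraries 0 were higher and Kcnj8 was lower. Angiogenic ligands gave 4 higher of 11 tested (Pdgfb, Vegfd, Jag1 and Fgf2), and Pdgfb alone (0.49, adjusted p = 0.0115) without the 3. Vegfa, the main ligand of VEGFR2, measured 12.7 and 20.2 FPKM in mutant anti-PD-1 replicates 1 and 2, against 27.5 to 49.0 FPKM in the other 3. The tumours with the most Kdr had the least Vegfa of their group.

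The list of other endothelial activation and adhesion genes held 14 genes, of which 8 were tested. Of these, 4 were higher in mutant tumours with anti-PD-1 (Icam2, Alcam, Jam2 and F11r) and Selp was lower (-1.03 ± 0.357, adjusted p = 0.0350). Alcam alone was called without the 3 libraries, and Selp was at -0.79 (adjusted p = 0.103). Selp (P-selectin, stored in endothelium and platelets for leukocyte rolling) measured 16.7, 16.7, 12.9, 19.97 and 15.2 FPKM in mutant PBS tumours. It ran from 1.49 to 10.6 FPKM in vector PBS tumours, below all of them, and the difference under PBS was 1.34 ± 0.353 (adjusted p = 0.0703, and 0.00480 without the 3 libraries).

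Sele (E-selectin, a cytokine-induced endothelial selectin) measured 31.6 to 65.3 FPKM in 17 of the 20 tumours. It measured 1.47 FPKM in vector anti-PD-1 replicate 1, 1.94 FPKM in mutant anti-PD-1 replicate 1 and 15.2 FPKM in mutant anti-PD-1 replicate 2, the 3 least correlated libraries. In the 2 mutant tumours these low values stood beside the highest levels of all 7 blood vessel genes. In vector anti-PD-1 replicate 1 the low value stood beside the lowest mean log2(FPKM + 1) of those 7 genes, at 1.55. That library also had the highest total FPKM and the fewest genes at 1 FPKM or more, 11182. The difference of Sele in mutant tumours with anti-PD-1 was -1.43 ± 0.648 (adjusted p = 0.103), and -0.35 (adjusted p = 0.166) without the 3.

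Part of the leukocyte partners of the adhesion molecules rose beside Icam1. Of 12 genes, all tested, 5 were higher in mutant tumours with anti-PD-1 (Selplg, Itga4, Itgal, Itgb2 and Itgax) and 2 lower (Cd44 and Itga6). The same 5 were higher without the 3 libraries, while Cd44 (adjusted p = 0.197) and Itga6 (0.105) were not called and Itgb1, the beta chain of VLA-4, was lower (-0.43, adjusted p = 0.0149). Itgal, the alpha chain of LFA-1, measured 13.1, 15.7, 15.6, 16.5 and 18.5 FPKM in mutant anti-PD-1 tumours. With PBS it measured 1.47, 2.64, 8.42, 3.10 and 1.47 FPKM, and replicate 3 was again the highest. The difference was 2.14 ± 0.321 (adjusted p = 0.000101). Itga4, the alpha chain of VLA-4, differed by 1.75 ± 0.234 (adjusted p = 3.83e-05). The difference of the responses was called for 4 of the 12 (Itga4, Selplg, Itgb2 and Itgal), against 9.35% of all genes in either direction. Without the 3 libraries it was called for Itga4 alone (1.55, adjusted p = 0.0439), where 2.16% of all genes were called higher.

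Part of the cytokine genes were higher as well. Of 14 tested in the TNF, interleukin-1 and interferon-gamma list, 5 were higher in mutant tumours with anti-PD-1 with and without the 3 libraries: Ifng, Tnf, Tnfrsf1b, Tnfrsf1a and Tnfaip3. Ifng averaged 1.25 ± 1.81 FPKM (SD, n = 5) with PBS and 8.02 ± 1.68 FPKM with anti-PD-1 in the mutant tumours. Its difference was 2.26 ± 0.325 (adjusted p = 6.72e-05), and that of Tnf was 1.43 ± 0.232 (adjusted p = 0.000191). T cell markers were higher for 9 of 9 tested genes and macrophage markers for 11 of 13, and for 9 and 9 without the 3 libraries. In mutant PBS replicate 3, the PBS tumour with the highest Icam1, Ifng was 4.46 FPKM, summed T cell markers were 37.4 FPKM and skeletal muscle markers were 1263 FPKM. The T cell sum ran from 1.504 to 8.53 FPKM in the other 4 tumours of that group. Which cells carried the Icam1 or Vcam1 RNA was not tested.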

How the data were processed

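RNA of 20 CT26 tumours was sequenced, and the authors deposited 1 value per gene and library. The values were taken as FPKM because Cuffnorm is named per the submitters' processing notes, which also list FastQC, STAR 2.5, DESeq and mm10 with no role or order. The sources used here do not give annotation, strandedness, scaling between libraries or depth, so no counting interval can be given. Reads shared with overlapping genes could not be examined. Symbols were matched for 55154 of 55335 genes in GENCODE vM21.

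A gene was tested if 5 or more libraries reached 1 FPKM (13982 genes), on log2(FPKM + 1), using limma 3.58.1 (R 4.3.3; trend over mean level), 4 group means and a term for identifier style, and Benjamini-Hochberg adjustment over all genes of a contrast. The fit was tested on simulated data. Ratios, correlations of deviations from group means and promoter searches were made in Python 3.11.15 and are descriptions with no test. Alternatives changed the pseudocount (0.1), filter, style term, trend, sample weights, scaling, libraries and a skeletal muscle term. The genes named are the 10 genes, up to 4 of each list with the smallest p or those a count refers to, and the 5 most similar genes for each of Cdh5, Vcam1, Icam1 and Lyve1; Mrc1, Folr2, Cd163, Timd4, Fcgr1, C1qb, Cd34, Selp, Sele and Vegfa were picked from the lists after their values were seen. A gene of 1 list, a motif and a gene similar to Vcam1 are not reported here. The genes and lists were chosen with earlier results of these data known. No 2 libraries held identical values, and p-values measure the spread between mice.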

Additional observations from a re-analysis of the deposited data

Results flagged for a closer look

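Among 40 sets of 5 tumours (10 genes in 4 groups), 5 had 1 tumour whose gap to the next took more than 0.71 of the range, the limit that chance passes in about 1 in 20 sets. Mutant PBS replicate 3 was this tumour for Icam1 (6.86 FPKM), Eng (6.45 FPKM) and Tek (1.87 FPKM), and it also had the highest skeletal muscle markers of its group, at 1263 FPKM. Mutant anti-PD-1 replicate 1 was it for Lyve1, at 11.3 FPKM against 0.195 to 1.79 FPKM in the other 4. Vector PBS replicate 2 was it for Vcam1, at 37.6 FPKM against 32.0 to 33.3 FPKM. The response of Icam1 to anti-PD-1 differed between mutant and vector tumours by 1.93 (limma, adjusted p = 0.0114).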

How the results depend on the processing

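No paired analysis was possible because the labels give an animal identifier for each tumour and no replicate number, and the numbers used here are only names in order of deposit. Counts of called genes moved with the setting. Anti-PD-1 in vector tumours gave 0, and 5 with sample weights or 1 with number-only identifiers. Anti-PD-1 in mutant tumours gave 4271, and 6460 with sample weights, 2579 with a skeletal muscle term and 2754 to 4354 when 1 tumour was left out. Mutant against vector under PBS gave 203, and 2710 with sample weights, 1643 without the 3 least correlated libraries, 12 with M-style identifiers and 83 to 215 when 1 tumour was left out. The difference of responses gave 1308, and 3214 with sample weights, 387 without the 3 libraries and 688 to 2247 when 1 tumour was left out. The cause was not tested.

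Signs turned for differences that had not passed, except that of Cdh5 between mutant and vector tumours under anti-PD-1, which was -0.097 with number-only identifiers. With anti-PD-1 in vector tumours, with sample weights the values were 0.16 (Pecam1), 0.10 (Cdh5), 0.028 (Kdr), 0.036 (Tek), 0.068 (Emcn) and 0.070 (Vcam1). Without the 3 libraries the values were 0.074 (Pecam1) and 0.083 (Vcam1). With number-only identifiers the values were 0.35 (Pecam1), 0.26 (Cdh5), 0.17 (Kdr), 0.18 (Tek), 0.23 (Emcn) and 0.071 (Vcam1). With M-style identifiers Tie1 was at -0.090. With the muscle term Tie1 was at -0.0035. With quantile normalization Emcn was at 0.050. Leaving out 1 tumour gave -0.31 to 0.11 (Pecam1), -0.58 to 0.031 (Cdh5), -0.061 to 0.17 (Tie1), -0.20 to 0.032 (Emcn) and -0.32 to 0.064 (Vcam1). With anti-PD-1 in mutant tumours, without the 3 libraries Cdh5 was at -0.036. With M-style identifiers Lyve1 was at 1.03. Between mutant and vector tumours under PBS, with sample weights Pecam1 was at -0.065. With number-only identifiers Pecam1 was at -0.17. With the muscle term Pecam1 was at -0.013. With M-style identifiers the values were 0.070 (Kdr) and 0.035 (Tek). Leaving out 1 tumour gave -0.068 to 0.16 (Pecam1), -0.18 to 0.063 (Kdr), -0.22 to 0.031 (Tek), -0.12 to 0.016 (Emcn) and -0.063 to 0.47 (Icam1). In the difference of responses, without the 3 libraries the values were -0.020 (Cdh5) and -0.41 (Lyve1). With number-only identifiers the values were -0.11 (Cdh5) and -1.13 (Lyve1). With sample weights Lyve1 was at -0.43. Leaving out 1 tumour gave -0.018 to 0.99 (Lyve1).

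Icam1 and Eng were called in all 21 alternatives of both comparisons of mutant anti-PD-1 tumours. The limits are the 5 tumours per group, unknown depth, and 3 libraries that decide most vessel marker calls. In the mutant anti-PD-1 group the effect of leaving them out cannot be told apart from identifier style.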
